A study of Danio rerio with 8 samples.

Results

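The genes described here are 10 members of the circadian clock of the zebrafish: per1a, per1b, per2, per3, nr1d1, nr1d2a, arntl1a, clocka, tefa and dbpb. They were taken by symbol because per2 had been seen to be higher in tcf21-/- than in tcf21+/+ cells of both types studied, so the genotype differences below describe the genes and are not a test of them. All 10 were found among the 21286 genes measured, and all 10 were among the 16077 genes with a mean normalised count of at least 10 that entered the tests. The RNA-seq experiment compared cells sorted from hearts of 96 hpf larvae in 4 groups of 2 libraries each: tcf21-/- epicardial cells (EpiCs), tcf21+/+ EpiCs, tcf21-/- cardiomyocytes (CMs) and tcf21+/+ CMs. Its aim was to find factors of the epicardium that cardiomyocyte growth needs, by the loss of Tcf21, a transcription factor of the epicardium, the outer cell layer of the heart. All larvae carried the reporters TgBAC(tcf21:NLS-EGFP) and Tg(myl7:mCherry-CAAX). EGFP-positive cells, including those also positive for the myl7 reporter, were sorted as EpiCs, and EGFP-negative cells positive for the myl7 reporter as CMs.

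The mutants carried a frameshift allele of tcf21 (bns427). The tcf21-/- larvae were offspring of heterozygotes, picked by their missing head muscles and for a ventricle well covered by epicardium, whereas the tcf21+/+ larvae came from tcf21+/+ siblings crossed with each other, so that genotype and parentage cannot be told apart. Cells were collected over several sorting sessions that the labels do not assign to libraries. Both cell types were gated from dissociated hearts with both reporters, so EpiC and CM libraries of a genotype may share larvae. Likeness between the cell types therefore need not be a repeat in independent animals. The hour of collection and the light schedule of each library are not given in the sources used here, so time of day or light and genotype cannot be told apart for any clock gene. In sorted bulk samples, fewer cells of a type and less RNA per cell cannot be told apart either.

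The circadian clock is a feedback loop of transcription. The bHLH-PAS proteins Clock and Arntl (Bmal) activate the Period and Cryptochrome genes, whose proteins repress that activation, while the nuclear receptors Nr1d (Rev-erb) and Ror close a side loop on the arntl genes and the PAR bZIP factors Tef, Dbp and Hlf act through D-box elements. In zebrafish the clocks of peripheral tissues, the heart included, respond to light directly, and per2 and cry1a are known for their induction by light.

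The deposited normalised counts are reads per gene divided by a factor for the library. An estimated 6.44 to 11.4 M reads on genes lay behind each library, the fewest in replicate 1 of tcf21+/+ CMs. The replicates of that group also differed most from each other across genes (SD of the log2 difference 1.26, against 0.9 to 1.05 in the other groups). All 7 epicardial markers were called higher and all 10 cardiomyocyte marker genes (actc1a is listed under 2 entries) called lower in EpiCs than in CMs of both genotypes. tcf21 itself had 1636 and 1454 normalised counts in tcf21-/- EpiCs, against 1600 and 1851 in tcf21+/+ EpiCs. The CM libraries held little of it, with 5 and 12 in tcf21-/- CMs, against 80 and 28 in tcf21+/+ CMs. Its level therefore did not separate the genotypes in EpiCs, and transcript level need not fall with a frameshift allele. The estimated reads of tcf21 were 1941 and 1829 in tcf21-/- EpiCs, against 2062 and 2061 in tcf21+/+ EpiCs. They did not follow library depth, so a genotype difference in tcf21 level could be hidden and little is read from its likeness. Genes were tested as log2(normalised count + 1) with limma, and called at a Benjamini-Hochberg adjusted p under 0.05 with an absolute log2 difference of at least 0.59.

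per2 (ENSDARG00000034503, chromosome 2, 48309600 to 48375342, danRer11), a Period repressor that light induces in zebrafish, was the gene that chose the set. It had 2713 and 2787 normalised counts in tcf21-/- EpiCs, against 1334 and 1201 in tcf21+/+ EpiCs. In CMs it had 3462 and 3353 normalised counts in tcf21-/- libraries, against 1573 and 1853 in tcf21+/+ libraries. All 4 tcf21-/- libraries thus lay above all 4 tcf21+/+ libraries, whichever the cell type. The log2 difference was 1.12 (SE 0.15, 2.17-fold) in EpiCs and 1.0 (SE 0.15, 2-fold) in CMs. It stayed between 1.04 and 1.19 in EpiCs and between 0.88 and 1.29 in CMs under every alternative setting run. An estimated 1000 to 3506 reads per library lay behind these values. Read numbers bear on counting error alone, not on the spread between the 2 libraries of a group. How the call of per2 fared with a library left out is given below.

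The other Period genes did not share this pattern. per1b (ENSDARG00000012499, chromosome 7, 50822465 to 50847296) had the narrowest range relative to its level, with 3064 and 3273 normalised counts in tcf21-/- EpiCs, 3110 and 2914 in tcf21+/+ EpiCs, 2922 and 3202 in tcf21-/- CMs, against 2603 and 2742 in tcf21+/+ CMs. per1a (ENSDARG00000056885, chromosome 10, 22809715 to 22831611) had 383 and 375 normalised counts in tcf21-/- EpiCs, against 451 and 276 in tcf21+/+ EpiCs. Its CM values were 750 and 890 in tcf21-/-, against 269 and 771 in tcf21+/+ libraries, so that the genotypes overlapped in both cell types. per3 (ENSDARG00000010519, chromosome 11, 39959039 to 40021080) had 869 and 902 normalised counts in tcf21-/- EpiCs, against 932 and 766 in tcf21+/+ EpiCs. In CMs it had 1039 and 920 normalised counts in tcf21-/- libraries, against 313 and 723 in tcf21+/+ libraries. The CM groups of per3 were apart, but the gap between its tcf21+/+ replicates was wider than the gap between the groups.

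The activators of the loop showed no genotype pattern that both cell types shared. clocka (ENSDARG00000011703, chromosome 20, 22067337 to 22176003), a Clock gene, had few counts, with 27 and 84 normalised counts in tcf21-/- EpiCs, against 44 and 37 in tcf21+/+ EpiCs. In CMs it had 111 and 102 normalised counts in tcf21-/- libraries, and 5 and 79 in tcf21+/+ libraries. The CM difference of 2.29 on the log2 scale (SE 1.11) was the largest of the set and rested on the library with 5, since without replicate 1 of tcf21+/+ CMs it was 0.42. arntl1a (ENSDARG00000006791, chromosome 25, 17893784 to 17918810), the partner of Clock, had 825 and 827 normalised counts in tcf21-/- EpiCs, against 807 and 701 in tcf21+/+ EpiCs. Its CM values were 633 and 796 in tcf21-/-, against 607 and 659 in tcf21+/+ libraries, where the genotypes overlapped.

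Of the Rev-erb receptors in the set, repressors of the arntl genes, only nr1d2a had its genotypes apart without overlap. The receptors were not tested against each other. nr1d2a (ENSDARG00000003820, chromosome 16, 50089417 to 50111057) had 3136 and 3267 normalised counts in tcf21-/- EpiCs, against 2961 and 1783 in tcf21+/+ EpiCs. In CMs it had 3887 and 3594 normalised counts in tcf21-/- libraries, against 1729 and 2914 in tcf21+/+ libraries. Besides per2, nr1d2a was the only member whose tcf21-/- libraries lay above the tcf21+/+ libraries in each cell type, though its tcf21+/+ replicates lay far apart in both. The log2 differences were 0.48 (SE 0.29) in EpiCs and 0.74 (SE 0.29) in CMs, the second of which was 0.36 without replicate 1 of tcf21+/+ CMs. nr1d1 (ENSDARG00000033160, chromosome 3, 23488652 to 23496223) had 2892 and 2961 normalised counts in tcf21-/- EpiCs, against 3001 and 2257 in tcf21+/+ EpiCs. Its CM values of 4083 and 3926 in tcf21-/- libraries lay within those of 4355 and 3426 in tcf21+/+ libraries.

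The PAR bZIP factors, activators at D-box elements, mostly overlapped between genotypes. tefa (ENSDARG00000039117, chromosome 12, 19144833 to 19153177) had 2321 and 1963 normalised counts in tcf21-/- EpiCs, against 2167 and 1967 in tcf21+/+ EpiCs. Its CM values were 3757 and 3558 in tcf21-/- libraries, against 3564 and 2623 in tcf21+/+ libraries. dbpb (ENSDARG00000057652, chromosome 16, 13599693 to 13613475) had 1630 and 1703 normalised counts in tcf21-/- EpiCs, against 2065 and 1226 in tcf21+/+ EpiCs. It had 2524 and 2165 in tcf21-/- CMs, against 1688 and 2094 in tcf21+/+ CMs. The genotypes overlapped for tefa in both cell types and for dbpb in EpiCs, and were apart for dbpb in CMs.

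**Figure D1:**
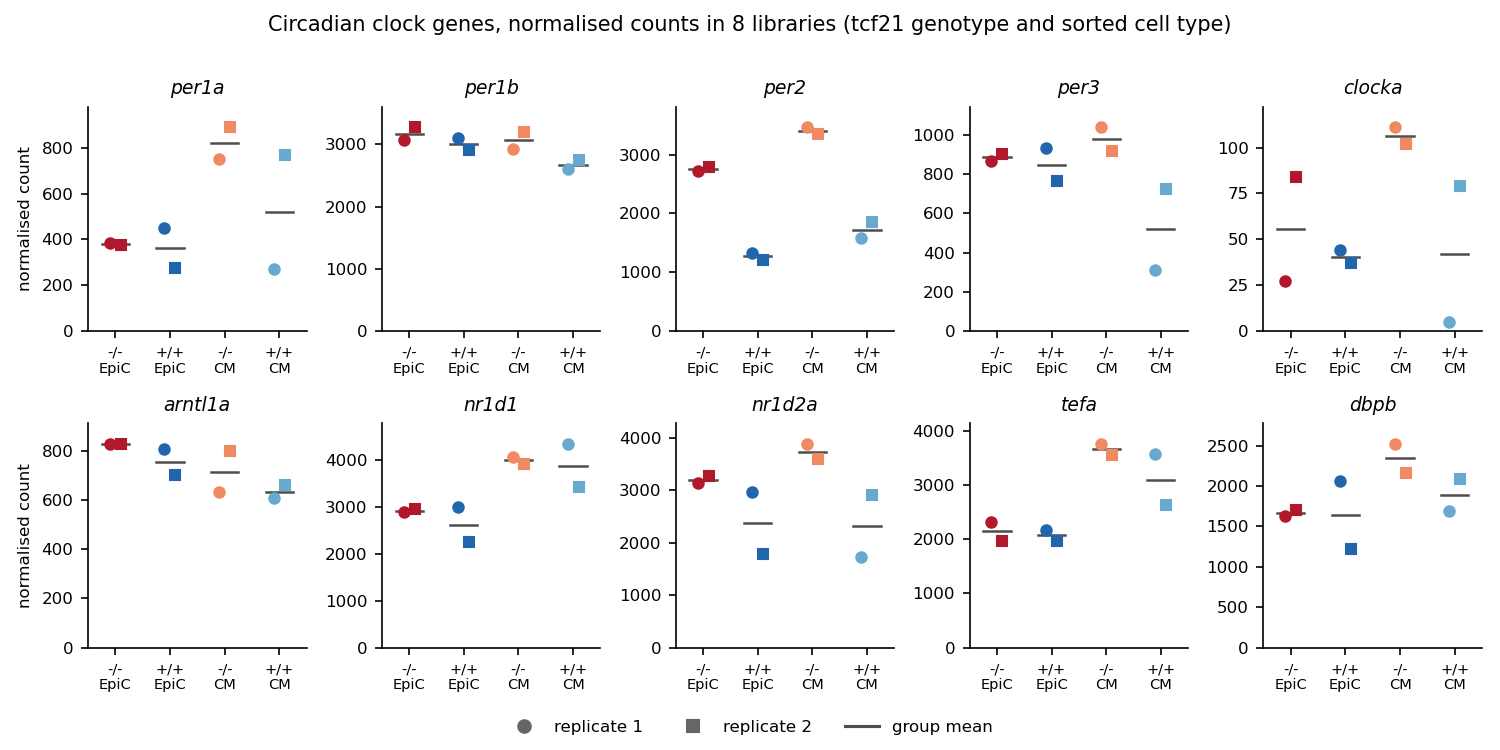
Normalised counts (y axes, each from 0) of the 10 clock genes in the 8 libraries, by tcf21 genotype and cell type; circles are replicate 1, squares replicate 2 and lines group means. per2 has its 4 tcf21-/- libraries between 2713 and 3462, above its 4 tcf21+/+ libraries between 1201 and 1853, while replicate 1 of tcf21+/+ CMs is low for per1a, per3, clocka and nr1d2a.

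Over the set, 1 of 10 members, per2, was called higher in tcf21-/- EpiCs, beside 0.0435% of all genes tested, and 1 of 10, again per2, was called higher in tcf21-/- CMs, beside 0.249%. Because per2 chose the set, nothing is read from these counts. Leaving out any 1 library other than those of tcf21+/+ CMs ended the call of per2 in EpiCs. Leaving out any 1 library other than replicate 2 of tcf21+/+ CMs ended it in CMs. Without that replicate, which left only replicate 1 in its group, the median log2 difference of the members in CMs was 0.79. The tcf21-/- libraries lay above the tcf21+/+ libraries without overlap for 3 of 10 members in EpiCs (per2, nr1d2a and arntl1a), beside 21.6% of all genes, and for 6 of 10 in CMs (per1b, per2, per3, nr1d2a, clocka and dbpb), beside 20.6%. In both cell types this held for 2 of 10, beside 6.79%. No member had its tcf21-/- libraries below the tcf21+/+ libraries, as 21.5% of all genes did in EpiCs and 19.3% in CMs. All 10 log2 differences were above 0 in both cell types, with a median of 0.12 in EpiCs and 0.52 in CMs, where the medians of all genes were -0.01 and 0. per2, which chose the set, is part of these medians and of the counts without overlap. The medians of the members other than per2 were 0.1 in EpiCs and 0.31 in CMs. The sign of all 10 held under each other scaling. Of these, estimated reads without scaling left library depth in, and moved the median of all genes in CMs to 0.27. Leaving out 1 library turned the sign for 6 members in EpiCs (per1a, per3, clocka, nr1d1, tefa and dbpb) and for nr1d1 in CMs. Without replicate 1 of tcf21+/+ CMs the median in CMs was 0.29, and the single remaining tcf21+/+ library lay below both tcf21-/- libraries for 8 of 10 members, beside 32.8% of all genes.

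**Figure D2:**
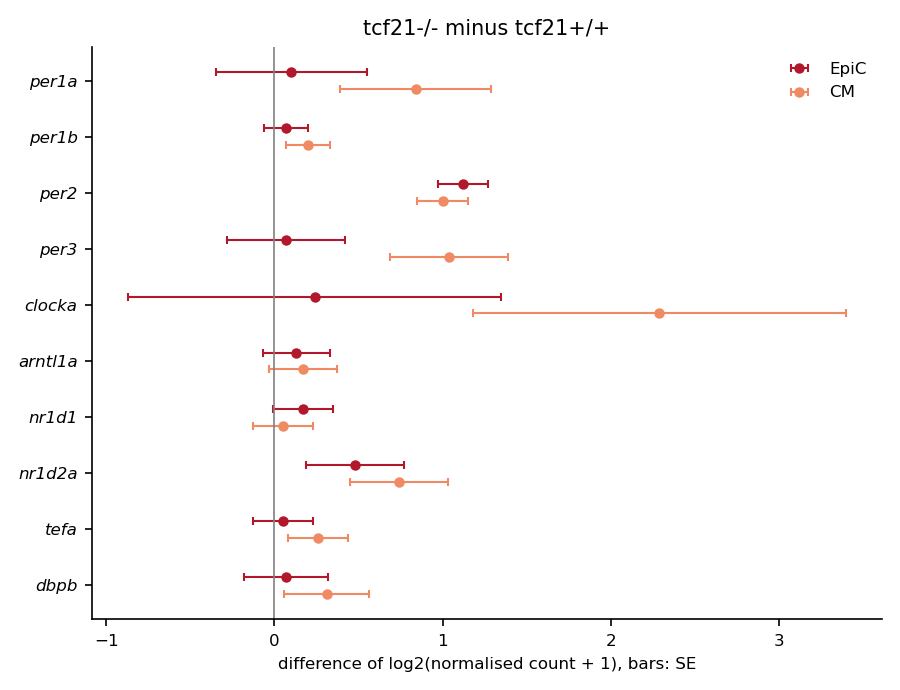
Difference of log2(normalised count + 1), tcf21-/- minus tcf21+/+, for the 10 clock genes (x axis) in EpiCs (dark red) and CMs (orange); bars are standard errors from 1 limma fit of 8 libraries. per2 is at 1.12 and 1.0, and the other 9 genes are between 0.05 and 0.48 in EpiCs and between 0.05 and 2.29 in CMs.

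Whether a genotype difference was unlike in EpiCs and CMs was tested as an interaction. By limma, 0 of the 9 members other than per2 were called, 0 of them reached an unadjusted p under 0.05, and the background was 0% of 16077 genes called (1137 at an unadjusted p under 0.05). The differences of differences ran from -2.05 (SE 1.56) for clocka to 0.12 (SE 0.25) for nr1d1, with adjusted p of 0.768 to 0.991. The standard errors leave room for sizeable differences, so likeness between the cell types was not shown.

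Some markers of other cell types also stood apart by genotype, though limma called only 1 of all the markers. This was nppa, a natriuretic peptide gene of cardiomyocytes, with 127 and 80 normalised counts in tcf21-/- EpiCs, against 740 and 618 in tcf21+/+ EpiCs (log2 difference -2.73, SE 0.27, adjusted p = 0.0192 by limma). In EpiCs 4 of the 10 cardiomyocyte markers were lower without overlap in tcf21-/- libraries, nppa, myl7, myh6 and 1 actc1a entry, beside 21.5% of all genes. None of the markers (0 of 10) was higher, beside 21.6%. myl7 was barely apart, with 1327 and 1222 normalised counts in tcf21-/- EpiCs, against 1333 and 1377 in tcf21+/+ EpiCs. Its estimated reads overlapped there, with 1574 and 1537 in tcf21-/-, against 1718 and 1533 in tcf21+/+ libraries. myh6 had 88 and 130 normalised counts in tcf21-/- EpiCs, against 540 and 229 in tcf21+/+ EpiCs. The summed level of all 10 overlapped between genotypes in EpiCs, with 14825 and 13747 in tcf21-/-, against 18510 and 10948 in tcf21+/+ libraries. The summed level of 6 macrophage and leukocyte markers was 2053 and 2746 in tcf21-/- CMs, against 555 and 651 in tcf21+/+ CMs. All 6 were higher without overlap there, beside 20.6% of all genes. In EpiCs the sum was 98 and 40 in tcf21-/-, against 12 and 17 in tcf21+/+ libraries, where ptprc, the pan-leukocyte phosphatase, was at 0 in all 4. The neural gene elavl4, which holds nearly all of the summed level of 4 neural and neural crest markers, had 924 and 618 normalised counts in tcf21-/- EpiCs, against 223 and 235 in tcf21+/+ EpiCs, but ran the other way in CMs, with 38 and 44 in tcf21-/-, against 64 and 145 in tcf21+/+ libraries. The endothelial receptor gene tie1 had 184 and 196 normalised counts in tcf21-/- EpiCs, against 19 and 44 in tcf21+/+ EpiCs, while the sum of 6 endothelial and endocardial markers overlapped in both cell types. Of these 6, 3 were higher without overlap in tcf21-/- EpiCs (tie1, fli1a and pecam1), beside 21.6% of all genes. In tcf21-/- CMs 2 were higher (pecam1 and tek), beside 20.6%, and 0 were lower in either cell type. Of 4 smooth muscle markers, acta2 and tagln were lower without overlap in tcf21-/- CMs, beside 19.3% of all genes. The sum of the 4 was 2836 and 2419 in tcf21-/- CMs, against 4634 and 3533 in tcf21+/+ CMs. The part of these cells in the clock gene values was not tested.

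The light-responsive genes of zebrafish other than the members were described next to per2 from a list of 8 symbols, of which 7 were in the table. cry1a (ENSDARG00000045768), a Cryptochrome repressor, had 2076 and 2267 normalised counts in tcf21-/- EpiCs, against 1199 and 1184 in tcf21+/+ EpiCs. In CMs it had 3321 and 3205 normalised counts in tcf21-/- libraries, against 2227 and 2239 in tcf21+/+ libraries. Its replicates were close in every group and the genotypes were apart in each cell type, with log2 differences of 0.86 (SE 0.14) in EpiCs and 0.55 (SE 0.14) in CMs. xpc, a gene of nucleotide excision repair, had 245 and 255 normalised counts in tcf21-/- EpiCs against 165 and 170 in tcf21+/+ EpiCs. In CMs the values were 292 and 195 in tcf21-/- libraries, against 112 and 126 in tcf21+/+ libraries. cry5, the 6-4 photolyase, had 136 and 103 normalised counts in tcf21-/- EpiCs against 100 and 88 in tcf21+/+ EpiCs. Its CM values were 316 and 222 in tcf21-/- libraries, against 90 and 107 in tcf21+/+ libraries.

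In CMs, 6 of the 7 were higher in tcf21-/- libraries without overlap, the exception being lonrf1l, beside 20.6% of all genes, and in EpiCs 3 of 7 were (cry1a, xpc and cry5), beside 21.6%, with none lower in either. ddb2, a damage sensor of the same repair pathway, had 883 and 615 normalised counts in tcf21-/- CMs, against 475 and 216 in tcf21+/+ CMs, and overlapped in EpiCs. neil1, a base excision repair glycosylase, had 1557 and 1456 normalised counts in tcf21-/- CMs, against 1090 and 1082 in tcf21+/+ CMs, and also overlapped in EpiCs. The summed level of the 7 genes was 4967 and 4822 in tcf21-/- EpiCs, against 3831 and 3711 in tcf21+/+ EpiCs. In CMs it was 8552 and 8353 in tcf21-/-, against 5308 and 5596 in tcf21+/+ libraries. With the values as deposited, no single gene of the 7 was called by limma in either genotype comparison. Of all genes, 0.0435% were called higher in EpiCs and 0.249% in CMs. Under quantile normalization 1 of 7 was called higher in EpiCs. At an unadjusted p under 0.05 by limma were 1 of 7 in EpiCs and 5 in CMs, beside 1360 and 1964 of the 16077 genes. All 7 log2 differences in CMs and 5 of 7 in EpiCs were above 0, and these counts of signs were alike under each other scaling. Of these, estimated reads without scaling left library depth in, and moved the median of all genes in CMs to 0.27. Without replicate 1 of tcf21+/+ CMs, 6 of 7 were still higher in CMs, beside 32.8% of all genes.

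**Figure D3:**
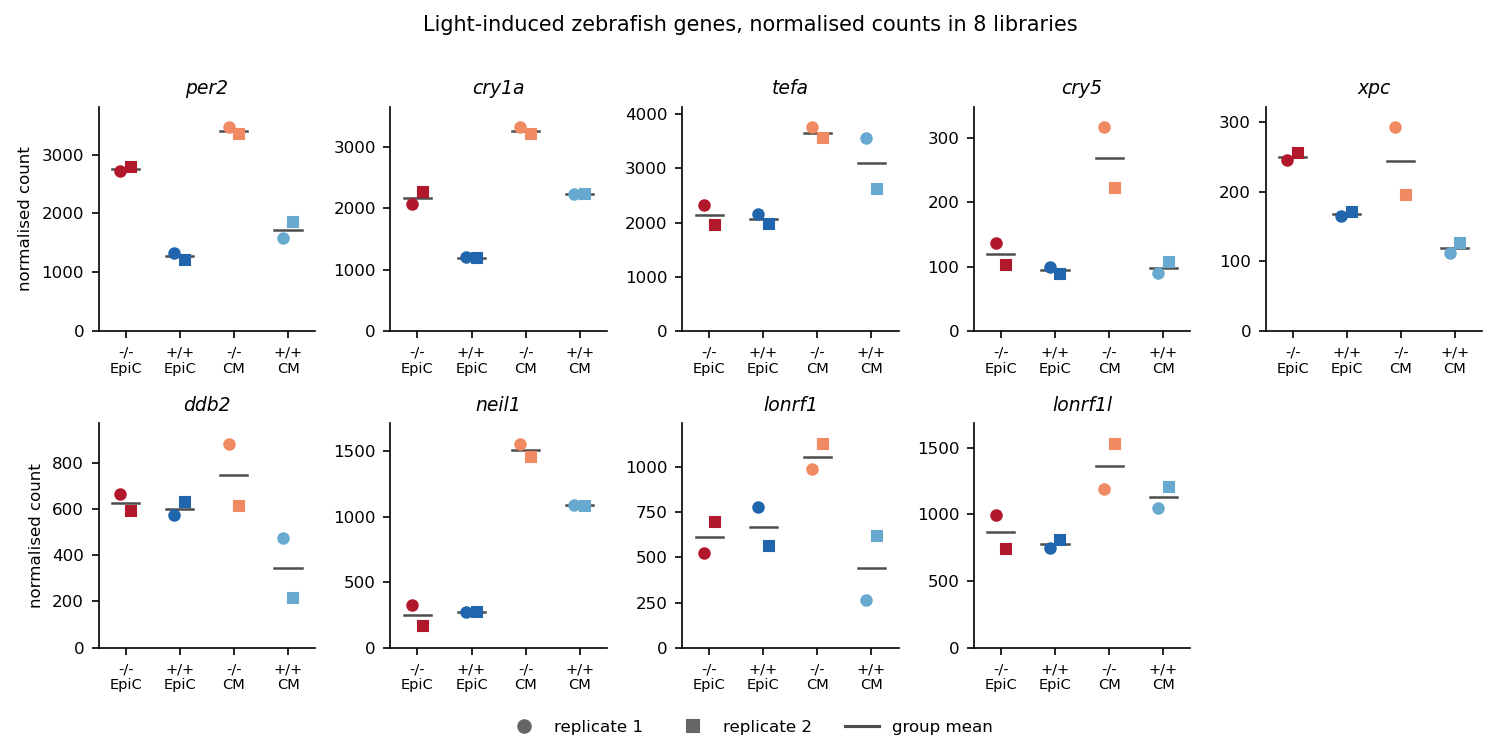
Normalised counts (y axes, each from 0) of 9 genes that light induces in zebrafish, per2 and tefa of the clock set included, in the 8 libraries; circles are replicate 1, squares replicate 2 and lines group means. cry1a shows tight replicates with 2076 and 2267 in tcf21-/- EpiCs over 1199 and 1184 in tcf21+/+ EpiCs, while tefa, ddb2, neil1, lonrf1 and lonrf1l overlap between genotypes in EpiCs.

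By genotype, 1360 of all 16077 genes in EpiCs and 1964 in CMs were at an unadjusted p under 0.05 by limma. Of 17 immediate early genes, which handling of cells can raise, limma called 0 in either genotype comparison (2 at that unadjusted p in EpiCs and 1 in CMs). Their summed level was 43795 and 41675 in tcf21-/- EpiCs, against 42851 and 43912 in tcf21+/+ EpiCs. In CMs this sum was 41645 and 34535 in tcf21-/- libraries, against 54310 and 36770 in tcf21+/+ libraries. For some of them, fosab, jun, junba, junbb and ier2a included, the estimated reads hardly varied with depth. Those of junba ran from 2889 to 2941 in EpiCs and from 2612 to 2631 in CMs, so that its normalised counts differ mainly by the library factor. Such genes could hardly show a genotype difference, so nothing is read from the 0 calls or the sums. The estimated reads of per2 had a coefficient of variation of 44.0% over the EpiC libraries and 49.1% over the CM libraries, against 0.9% and 0.3% for junba. For per2 this spread holds library depth and the genotype difference that chose the set, so nothing is read from the contrast. Of 6 glucocorticoid response genes, per1a included, 5 could be tested and 0 were called (0 and 1 at an unadjusted p under 0.05 in EpiCs and CMs). fkbp5, which glucocorticoids induce, had 2871 and 2306 normalised counts in tcf21-/- CMs, against 1810 and 1573 in tcf21+/+ CMs, and overlapped between genotypes in EpiCs. In tcf21-/- CMs 3 of the 5 were higher without overlap (fkbp5, sgk1 and klf9), beside 20.6% of all genes, and 0 were lower, beside 19.3%. In tcf21-/- EpiCs 0 were higher, beside 21.6%, and 1 was lower (tsc22d3), beside 21.5%.

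The rest of the clock pathway was taken from a list of 56 symbols, of which 43 were in the table and 39 were tested. By genotype, limma called 0 of 39 in EpiCs, beside 0.0435% of all genes called higher and 0.149% lower. In CMs it called 0, beside 0.249% and 0.118%. With so few calls over all genes, nothing is read from the 0. Under quantile normalization 1 of 39 was called higher in EpiCs. At an unadjusted p under 0.05 by limma were 1 of 39 in EpiCs and 7 in CMs, beside 1360 and 1964 of the 16077 genes. The tcf21-/- libraries were higher without overlap for 12 of 39 in EpiCs, beside 21.6% of all genes, and lower for 1, beside 21.5%. In CMs they were higher for 17, beside 20.6%, and lower for 4, beside 19.3%. They were higher in both cell types for 6 of 39 (cry1a, cry2, cry5, rorca, nfil3-6 and csnk1db), beside the 6.79% of all genes, and lower in both for 0, beside 6.20%. cry2, another Cryptochrome, had 1383 and 1344 normalised counts in tcf21-/- EpiCs against 1264 and 1026 in tcf21+/+ EpiCs. In CMs the values were 1590 and 1656 in tcf21-/- libraries, against 1389 and 1430 in tcf21+/+ libraries. csnk1db, a casein kinase 1 delta that phosphorylates Period proteins, had 2592 and 2475 normalised counts in tcf21-/- EpiCs against 2273 and 2034 in tcf21+/+ EpiCs. Its CM values were 3410 and 3357 in tcf21-/- libraries, against 2386 and 2970 in tcf21+/+ libraries. Of the 8 Cryptochrome family genes, 8 had log2 differences above 0 in EpiCs, where cry1b, at 0.03, fell just below 0 under upper quartile rescaling, and 7 had them above 0 in CMs, the exception being cry4, which was above 0 with estimated reads without scaling.

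Between cell types, a comparison that did not choose the set, few members were called. In tcf21+/+ hearts, limma called 0 of 10, where 22.9% of all genes were called higher and 18.8% lower in EpiCs than in CMs. At an unadjusted p under 0.05 by limma were 4 of 10, beside 8164 of the 16077 genes. In these hearts 3 members passed the adjusted p but not the limit on size, and all were lower in EpiCs: nr1d1 at -0.57 (SE 0.18, adjusted p = 0.0324), tefa at -0.57 (SE 0.18, adjusted p = 0.0337) and per2 at -0.43 (SE 0.15, adjusted p = 0.0462). Estimated reads without scaling left library depth in, and moved the median of all genes to 0.74 from 0.11. With them these 3 were at 0.06, 0.06 and 0.20, still below that median. The EpiC libraries lay above the CM libraries without overlap for 3 of 10 members, beside 37.7% of all genes, and below them for 3, beside 31.5%. Of all 10, the other 7 ran from -0.37 for per1a to 0.92 for clocka, with adjusted p of 0.0855 or more.

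In tcf21-/- hearts, 1 of 10 members was called, beside 21.0% of all genes called higher and 18.0% called lower. tefa was lower in EpiCs than in CMs, by a log2 difference of -0.78 (SE 0.18, 1.71-fold, adjusted p = 0.00879 by limma), and its EpiC values of 2321 and 1963 were well below its CM values of 3757 and 3558. With estimated reads without scaling the difference was -0.41 and not called, and the call was also lost without replicate 2 of tcf21-/- EpiCs or replicate 1 of tcf21-/- CMs. per1a came next with -1.11 (SE 0.45, adjusted p = 0.0861), its EpiC values of 383 and 375 lying below its CM values of 750 and 890. Without overlap, the EpiC libraries of tcf21-/- hearts lay above the CM libraries for 1 of 10 members (arntl1a), beside 39.7% of all genes, and below them for 8 of 10, beside 35.2%, the exception being per1b. With estimated reads without scaling, 5 of the 10 log2 differences were above 0 and 5 below. Left out of the fit, either library of tcf21+/+ CMs, through its part in the shared spread, brought per1a past the threshold (adjusted p = 0.0102 without replicate 1 and 0.0112 without replicate 2). Without replicate 1, per1a was at -1.13 in tcf21+/+ hearts, where the CM group then held 1 library. Without replicate 2 of tcf21+/+ CMs, per3 was at 1.43 and clocka at 2.78 in tcf21+/+ hearts, against 0.22 and -0.95 without replicate 1. nr1d1 was at -0.77 in these hearts without replicate 1 of tcf21+/+ EpiCs.

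Among the other clock genes, some stood far apart between the cell types, but their counts were not above the background of all genes. In tcf21+/+ hearts 7 of 39 were called higher and 6 lower in EpiCs, beside 22.9% and 18.8% of all genes, and in tcf21-/- hearts 5 were called higher and 7 lower, beside 21.0% and 18.0%. In both genotypes clockb, arntl2, ciartb and nfil3-5 were called higher and cry4, rorca, nfil3-6, bhlhe40 and bhlhe41 lower, and none of these 9 changed direction under another scaling. bhlhe41 (Dec2), a repressor of Clock and Arntl activity, had 521 and 347 normalised counts in EpiCs and 3350 and 2986 in CMs of tcf21-/- hearts, a log2 difference of -2.89 (SE 0.27, adjusted p = 8.04e-05 by limma). In tcf21+/+ hearts bhlhe41 had 447 and 311 normalised counts in EpiCs and 3287 and 2405 in CMs, a log2 difference of -2.91 (SE 0.27, adjusted p = 7.17e-05 by limma). Its relative bhlhe40 (Dec1) was at -1.06 in tcf21-/- and -0.99 in tcf21+/+ hearts, with all 4 EpiC libraries between 2061 and 2783 and all 4 CM libraries between 4134 and 5563.

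The D-box repressors of the nfil3 family split. nfil3-6 had 90 and 52 normalised counts in EpiCs and 1045 and 1006 in CMs of tcf21-/- hearts, and 50 and 19 in EpiCs and 510 and 328 in CMs of tcf21+/+ hearts. Its log2 differences were -3.89 (SE 0.51, adjusted p = 0.000459 by limma) in tcf21-/- and -3.68 (SE 0.51, adjusted p = 0.000554) in tcf21+/+ hearts. nfil3-5 was the reverse, with 1759 and 1858 normalised counts in EpiCs and 345 and 243 in CMs of tcf21-/- hearts, and 1639 and 1548 in EpiCs and 423 and 470 in CMs of tcf21+/+ hearts. Its log2 differences were 2.64 (SE 0.21, adjusted p = 4.23e-05 by limma) in tcf21-/- and 1.83 (SE 0.21, adjusted p = 0.00022) in tcf21+/+ hearts. The paralogues clockb and arntl2 of the activators were called higher in EpiCs, where the members clocka and arntl1a were not called. clockb had 788 and 1082 normalised counts in EpiCs and 370 and 455 in CMs of tcf21-/- hearts, and 794 and 546 in EpiCs and 313 and 362 in CMs of tcf21+/+ hearts. arntl2 had 218 and 278 normalised counts in EpiCs and 59 and 58 in CMs of tcf21-/- hearts, and 262 and 238 in EpiCs and 16 and 88 in CMs of tcf21+/+ hearts. Its log2 difference of 2.69 in tcf21+/+ hearts rested in part on the library with 16, being 1.49 without replicate 1 of tcf21+/+ CMs and 3.88 without replicate 2.

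cry1a differed by cell type as well as by genotype. It was lower in EpiCs than in CMs, by -0.59 (SE 0.14, adjusted p = 0.00894 by limma) in tcf21-/- hearts, just under the limit on size, and by -0.91 (SE 0.14, adjusted p = 0.000922) in tcf21+/+ hearts. All 8 Cryptochrome family genes had log2 differences below 0 in both genotypes, a direction that 5 of 8 lost in tcf21+/+ hearts and 1 in tcf21-/- hearts with estimated reads without scaling, and 2 of 8 in tcf21+/+ hearts under upper quartile rescaling. Among them cry4 was called in both genotypes, at -0.94 (SE 0.23, adjusted p = 0.0102) in tcf21-/- and -1.11 (SE 0.23, adjusted p = 0.0044) in tcf21+/+ hearts. The remaining genes called were npas2, csnk1da and fbxw11a, higher in EpiCs of tcf21+/+ hearts, nfil3, higher in EpiCs of tcf21-/- hearts, and cry5 and hlfa, lower in EpiCs of tcf21-/- hearts. A call in 1 genotype alone is not a difference between genotypes, and the interaction test called none of the 39. At an unadjusted p under 0.05 by limma were 2 of 39, beside 1137 of the 16077 genes.

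**Figure D4:**
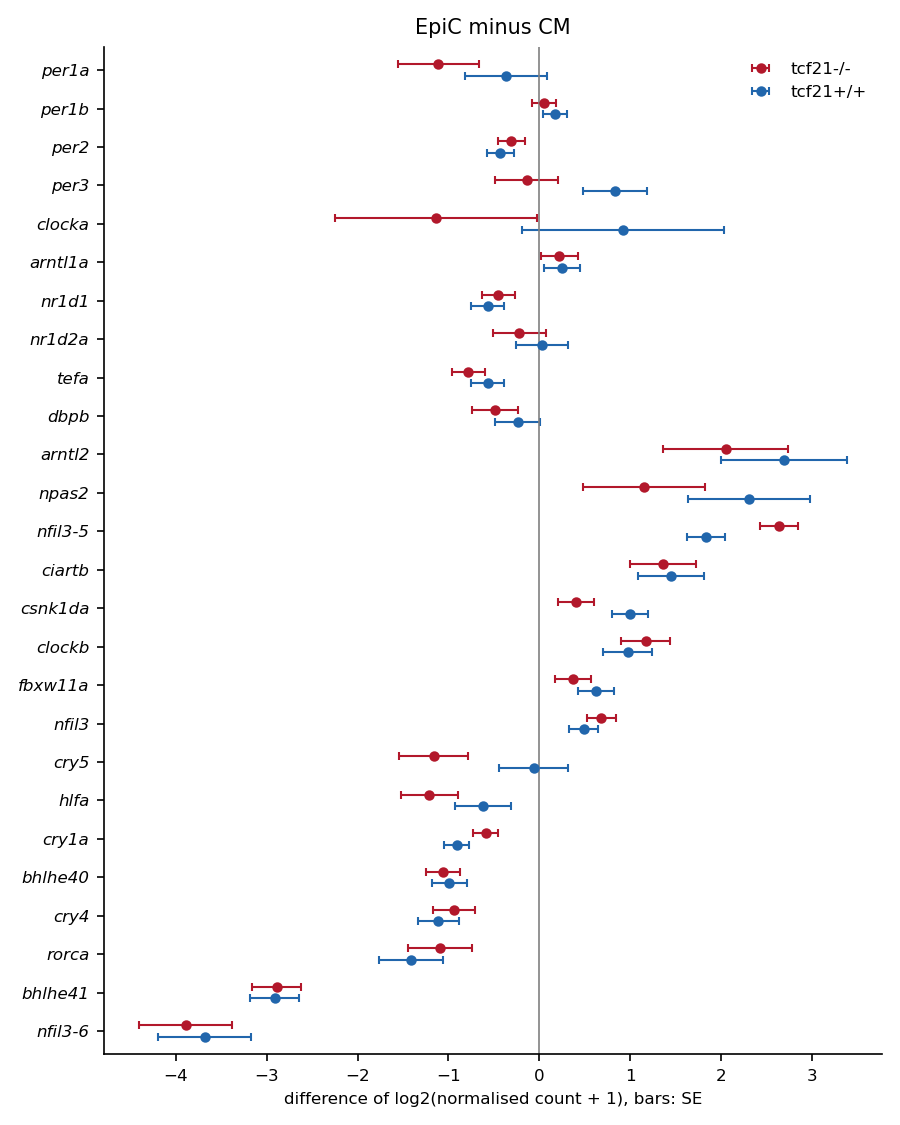
Difference of log2(normalised count + 1), EpiC minus CM (x axis), in tcf21-/- (red) and tcf21+/+ hearts (blue), for the 10 clock genes (upper rows) and the other clock genes called in at least 1 genotype (lower rows); bars are standard errors from 1 limma fit. The members stay between -1.14 and 0.92, whereas nfil3-6, bhlhe41, arntl2 and nfil3-5 reach -3.89, -2.91, 2.69 (1.49 without replicate 1 of tcf21+/+ CMs) and 2.64; nr1d1, tefa and per2 in tcf21+/+ and per2, per3 and nr1d2a in tcf21-/- hearts change sign with estimated reads without scaling, as do per1a, dbpb, cry5 and hlfa in tcf21+/+ hearts, and clocka in tcf21+/+ hearts changes sign under quantile normalization.

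The genes whose levels followed per2 most closely over the 8 libraries were ranked by Pearson r of log2(normalised count + 1) among 13462 tested genes with a symbol. Since the libraries share genotype and cell type groups, this only describes which genes have the same order of groups. The first 5 were slc45a4b (r = 0.966), a solute carrier, il2rga (0.953), a shared cytokine receptor subunit of leukocytes, znrf3 (0.95), a ubiquitin ligase that removes Wnt receptors, vac14 (0.942), a scaffold of the phosphoinositide kinase PIKfyve, and sgpl1 (0.935), the sphingosine phosphate lyase. znrf3 had 365 and 357 normalised counts in tcf21-/- EpiCs against 65 and 59 in tcf21+/+ EpiCs. It had 391 and 266 in tcf21-/- CMs, against 68 and 156 in tcf21+/+ CMs. il2rga was sparse, with 39 normalised counts at most. Of the clock pathway, cry1a was nearest to per2 (r = 0.878, rank 37), followed by csnk1db (0.816), cry2 (0.81), cry5 (0.808) and, first among the other members, nr1d2a (0.80, rank 196). arntl1a, the member least like per2, had r = 0.212.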

How the data were processed

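Total RNA of sorted EpiCs and CMs was amplified with a low-input full-length kit and sequenced, 8 libraries in all. According to the methods and the submitters' processing notes, the authors trimmed reads with Trimmomatic 0.39, aligned them to danRer11 (GRCz11) with STAR 2.7.3a and counted them per gene with featureCounts 1.6.5, with DESeq2 1.26.0 for their own comparisons. The table deposited by the authors holds a signal per gene, the normalised count, which is the number of reads over a library factor, rounded. A scan of the low values for the multiple that 1 read was worth (recovered in a self-test) gave the estimated reads. Groups and replicate numbers came from the labels, and every value column was matched to a library. The methods call the replicates biological, but neither they nor the labels say that replicates came from separate clutches, so p-values measure only the spread between these libraries.

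Values were compared as log2(value + 1), which understates changes of low genes, with limma 3.58.1 in R 4.3.3 (abundance trend, 8 libraries in 1 fit, two-sided), for genes with a mean of at least 10. P-values were adjusted by Benjamini-Hochberg over all genes tested. Python 3.11.15, pandas 2.3.3, numpy 2.4.6 and matplotlib 3.10.9 prepared tables and plots. The members, gene lists and tests were chosen with earlier results of these data known. Named were every member, other clock genes called between cell types or with genotypes apart in both cell types (by values or by name alone), the 5 genes most like per2, and light-responsive, marker and stress genes picked as examples after their values were seen. Alternatives were other pseudocounts, filters and scalings, library quality weights, no trend, only the groups compared, a replicate block and the removal of each library in turn. Estimated reads without scaling, and the counts without a tcf21+/+ CM library, were added after the data were seen. Reads on several genes or places were left out by the authors' counting. Transcript lengths were not used here, so levels are not compared between genes as molecules.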

Additional observations from a re-analysis of the deposited data

Results flagged for a closer look

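Outside the set, 3 of the 39 other clock genes tested had genotypes apart in opposite directions in the 2 cell types. Of all genes, 21.6% were higher and 21.5% lower without overlap in tcf21-/- EpiCs, and 20.6% and 19.3% in tcf21-/- CMs. The share of all genes apart in opposite directions was not counted, so nothing is read from the number of these genes. For each, the difference of the genotype differences, EpiC minus CM, was tested as an interaction with limma and was not called. csnk1e, a casein kinase 1 gene, had 171 and 142 normalised counts in tcf21-/- EpiCs against 113 and 104 in tcf21+/+ EpiCs, but 86 and 99 in tcf21-/- CMs against 264 and 121 in tcf21+/+ CMs. The difference of differences was 1.47 on the log2 scale (adjusted p = 0.7), and was 0.91 without replicate 1 of tcf21+/+ CMs and 2.03 without replicate 2. nfil3-5, a D-box repressor, had 1759 and 1858 normalised counts in tcf21-/- EpiCs against 1639 and 1548 in tcf21+/+ EpiCs, but 345 and 243 in tcf21-/- CMs against 423 and 470 in tcf21+/+ CMs, a difference of differences of 0.80 (adjusted p = 0.614). fbxl3a, an F-box gene of the family that targets Cryptochromes for degradation in mammals, had 690 and 681 normalised counts in tcf21-/- EpiCs against 817 and 879 in tcf21+/+ EpiCs, but 908 and 860 in tcf21-/- CMs against 736 and 775 in tcf21+/+ CMs, a difference of differences of -0.53 (adjusted p = 0.725).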

How the results depend on the processing

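per2 kept its direction in both genotype comparisons under all settings, but this direction chose the set, so nothing is read from that. per2 was no longer called in EpiCs (0 members) under upper quartile rescaling, no trend, the replicate block, only the groups compared and estimated reads. Nor was it called in CMs (0 members) under those settings, no filter and library quality weights. Leaving out 1 library gave 0 to 1 members called in EpiCs and 0 to 5 in CMs, the 5 without replicate 2 of tcf21+/+ CMs (per1a, per2, per3, clocka and nr1d2a). Between cell types, leaving out 1 library gave 0 to 4 members called in tcf21+/+ and 0 to 2 in tcf21-/- hearts. In tcf21-/- hearts 2 were called under quantile normalization, library quality weights and only the groups compared, and 0 under no trend and estimated reads, with which 1 (per1b) was called in tcf21+/+ hearts. Over all genes, the number called also rose or fell with the library left out, in the genotype and the cell type comparisons alike. The member counts with 1 library left out are therefore not specific to the clock genes, and nothing is read from them. For the member counts under all these settings the cause was not tested.

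No pairing by replicate number was seen over all genes: deviations of same-numbered libraries had correlations of -0.081 to 0.067 between groups. Whether libraries shared hearts or a sorting session was not tested. With the replicate block 0 members were called in either genotype comparison, 0 between cell types in tcf21+/+ and 1 in tcf21-/- hearts. The interaction gave 0 members under every setting.

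Differences between EpiCs and CMs near 0 turned sign. With estimated reads without scaling, in tcf21+/+ hearts, per1a was at 0.26, per2 at 0.20, nr1d1 at 0.06, tefa at 0.06 and dbpb at 0.39, and in tcf21-/- hearts per2 was at 0.06, per3 at 0.22 and nr1d2a at 0.14. Relative to the median of all genes, that of the members was -0.21 there in tcf21+/+ hearts, against -0.22 as deposited, and -0.46 in tcf21-/- hearts, against -0.47. clocka was at -0.07 in tcf21+/+ hearts under quantile normalization. Leaving out 1 library, the range in tcf21+/+ hearts was -1.13 to 0.39 for per1a, -0.34 to 0.41 for nr1d2a, -0.95 to 2.78 for clocka and -0.62 to 0.14 for dbpb, and in tcf21-/- hearts -0.02 to 0.12 for per1b. Values of per1a 0.39, nr1d2a -0.33 and -0.34, clocka -0.95, dbpb 0.14 and per1b -0.02 were those of opposite sign. With 2 libraries a group and few reads, the low gene clocka allows no firm statement.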
